A study of Mus musculus with 6 samples.

Results

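The genes described here are those of the tight junction and the desmosome, the seals and rivets that hold the cells of an epithelium together. They were chosen by symbol as the protein-coding claudins (Cldn with a number), the numbered Tjp, Marveld, Dsc, Dsg and Pkp genes, and Ocln, F11r, Cgn, Dsp and Jup. Of 47 such genes in the annotation, 40 were among the 20687 gene symbols of the table: 19 claudins, 5 other tight junction membrane proteins, 4 tight junction scaffolds, 6 desmosomal cadherins and 6 desmosomal plaque proteins. Cldn14, Cldn16, Cldn17, Cldn24, Dsc1, Dsg1c and Dsg4 were not analysed here. Expression was measured by RNA-seq in 3 samples of whole lung and 3 samples of the KP cell line, both of strain C57BL/6. The lungs came from mice given 100000 KP cells by tail vein and harvested 28 days later, and each lung sample pooled 3 mice of 1 of 3 independent experiments. KP cells are the line that was injected, so that both groups hold them, and the labels give neither their genotype nor a clone. The series has no lung without injected cells, and whether the triplicate cell line extracts were made from different cultures is not stated, and every p-value below therefore reflects spread that may be technical in part. By its title the series was made to compare chemokine genes, and the junction genes are read from the same libraries.

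Tight junctions close the gap between neighbouring epithelial or endothelial cells near their apical side. Claudins and the MARVEL-domain proteins span the membrane, some claudins as barriers and some as pores for ions and water, and scaffold proteins of the ZO family tie them to actin. Desmosomes lie below them and join the keratin filaments of neighbouring cells through cadherins (Dsg and Dsc), armadillo proteins (Jup and the plakophilins) and desmoplakin (Dsp). In lung, claudin-18 is a known protein of the alveolar epithelium and claudin-5 of the endothelium.

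Levels are given as CPM, counts scaled to a common depth on library sizes scaled by the TMM method, and compare a gene between samples. TPM values, in which counts are divided by annotated transcript length, compare different genes within a sample. Estimated counts summed to between 17786758 and 22862396 per sample, so that 3 counts, the most that a count of 0 allows, came to between 0.12 and 0.173 CPM. These limits and all intervals account for counting error alone. A gene was called higher or lower in lung at an edgeR quasi-likelihood adjusted p below 0.05 over 15212 genes tested.

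In each group 1 sample stood apart from the others. Lung replicate 2 correlated with lung replicates 1 and 3 at 0.936 and 0.908 in log2 CPM across genes, against 0.98 between those replicates, and cell line replicate 1 with the others at 0.965 and 0.964, against 0.991. In lung replicate 2 the junction genes with long transcripts were low. Among the 26 junction genes that reached 5 CPM in a group or were lower in lung, the 13 shorter ones, of up to 3043 bases, had a median log2 ratio of -0.04 against the mean of lung replicates 1 and 3, and the 13 longer ones -0.92. In that sample 10 of the 26, among them Cgn, Cldn1, Dsg2, Dsp, Marveld2, Ocln, Pkp1, Pkp4 and Tjp1, were more than 1.5-fold below that mean, and none was that far above it. The deviation was -1.63 for Dsg2, -1.58 for Tjp1, -1.39 for Dsp and -1.20 for Cgn. In cell line replicate 1, Cldn12 was 2 times the mean of replicates 2 and 3, and Cldn6, Cldn2, Dsp and Jup were 0.387, 0.517, 0.533 and 0.627 times it.

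**Figure D1:**
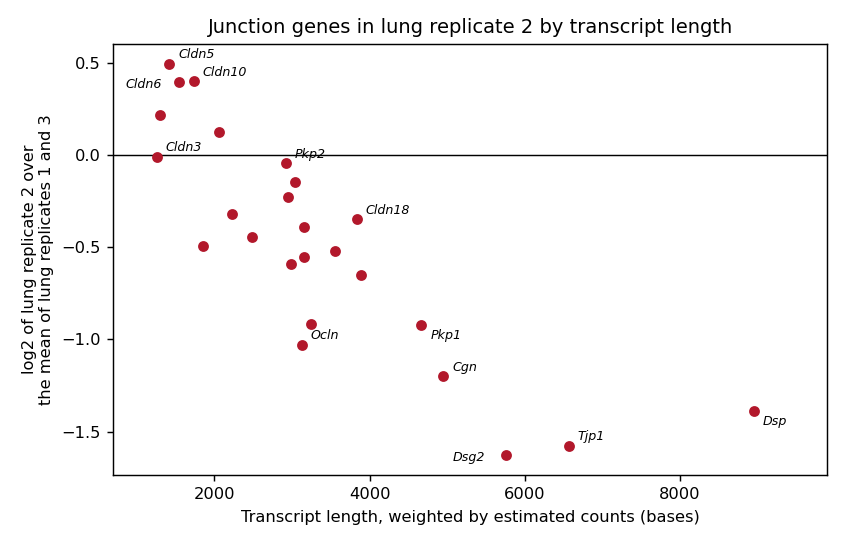
Junction genes in lung replicate 2 by transcript length. The x axis is the transcript length in bases, weighted by estimated counts, and the y axis the log2 ratio of CPM in lung replicate 2 to the mean of lung replicates 1 and 3, with 1 point for each of 25 genes. Points at the short end lie near or above 0 and those at the long end reach -1.63 (Dsg2).

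Of the 31 junction genes that passed the filter on low counts, 17 were higher in lung, 4 were lower and 10 did not pass the test. Over all 15212 genes tested, 31.3% were called higher, 17.5% lower and 48.8% in either direction. All lung samples were above all cell line samples in 19 of the 31 genes and below them in 6, against 35.6% and 26.5% of all genes tested. The median log2 fold change of the 31 genes was 1.71, against 0.08 over all genes tested. Those lower in lung included Cldn6, Cldn12 and Pkp1. With samples scaled by library size alone the median over all genes shifted by 0.23, the share of calls that were higher went from 64.1% to 75.1% over all genes, and 20 junction genes were higher and 3 lower. The other 9 junction genes, Cldn9, Cldn11, Cldn13, Cldn19, Cldn20, Cldn22, Dsg1a, Dsg1b and Dsg3, were not tested, and none exceeded 1.14 CPM in any sample. Cldn11 and Cldn22 had 20 and 29 counts over the lung samples and 0 over the cell line samples.

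**Figure D2:**
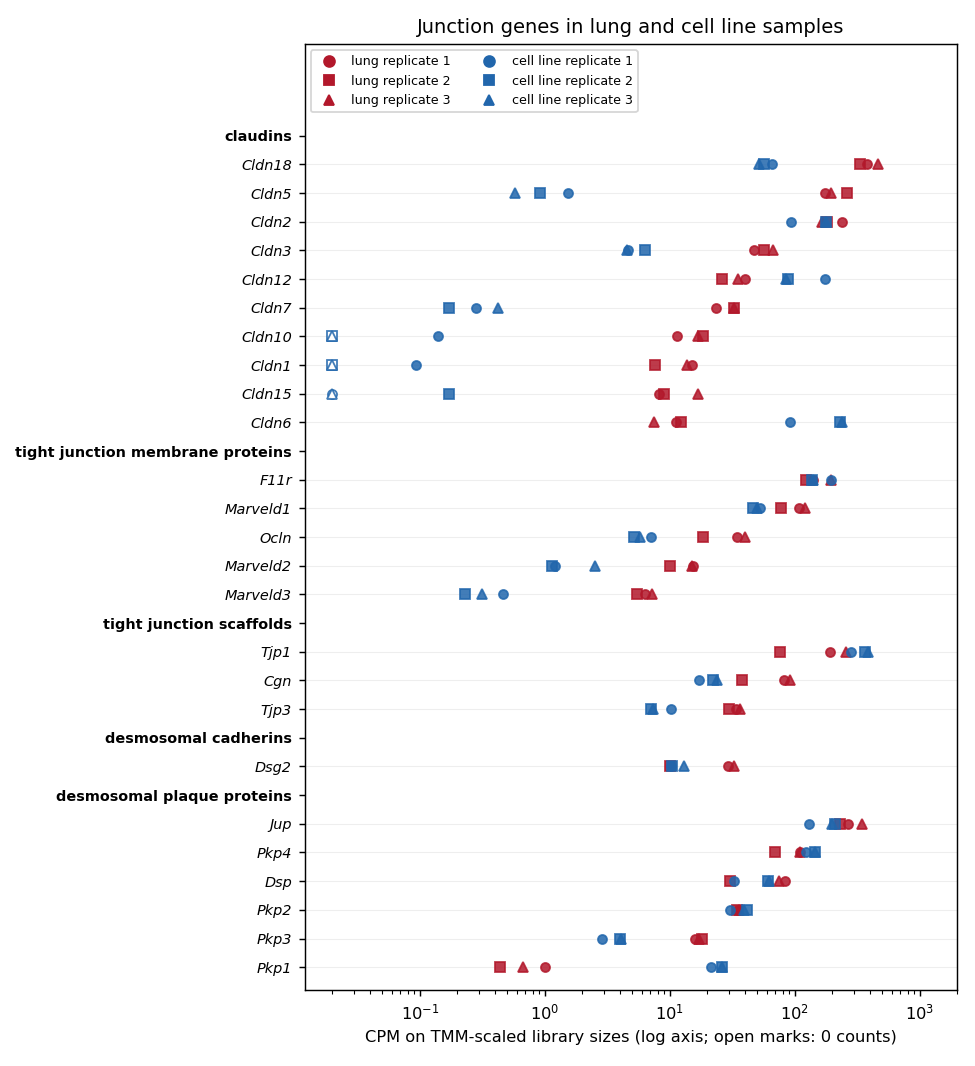
Levels of 25 junction genes by sample. The x axis is CPM on a log scale, each row is a gene, red marks are lung samples, blue marks are cell line samples, the shape gives the replicate, and open marks are samples with 0 counts. The colours are far apart for Cldn5, Cldn7 and Pkp1 and mixed for Cldn2, F11r, Dsp and Pkp2.

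Whole lung holds the normal cells of the organ as well as the injected ones, and in such samples fewer cells of a type and less RNA per cell cannot be told apart. The 8 alveolar type 2 markers summed to 15300 to 21711 CPM in lung and to 84.3 to 92.4 CPM in the cell line, with Sftpa1, Sftpd and Slc34a2 at 0 counts there and Abca3 giving most of the sum. All 8 were called higher in lung, as were 7 of 8 alveolar type 1 markers (2453 to 2883 against 245 to 359 CPM, none at 0), all 8 airway markers (8246 to 11988 against 1.03 to 1.497 CPM, 3 at 0) and all 8 endothelial markers (1013 to 1925 against 8.85 to 12.6 CPM, none at 0). Aqp5 and Emp2 gave most of the alveolar type 1 sum in the cell line. Of the heart muscle markers, whose cells sheathe the pulmonary veins in mice and also build desmosomes, 6 of 7 tested were higher and 1 lower (118 to 198 against 24.9 to 75.8 CPM, 3 of 8 at 0). The lower one, Tnnt2, gave nearly all of the cell line sum, at 24.5, 74.1 and 75.0 CPM. Of the 5 mesothelial markers 4 were higher and 1 lower (189 to 367 against 601 to 913 CPM, none at 0). The lower one, Msln, gave nearly all of the cell line sum, at 912, 613 and 600 CPM. Of the 6 basal and squamous markers only 2 could be tested, and neither passed (2.24 to 5.66 against 2.15 to 15.5 CPM, Krt5 at 0). The part of these cells in the differences below was not tested.

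Claudins set the groups apart most widely. Of 13 tested, 9 were higher in lung, 2 were lower and 2 did not pass the test, with a median log2 fold change of 3.47. Over all genes tested 31.3% were called higher and 17.5% lower, which is the background for each class below as well. The lung samples carried mainly Cldn5 and Cldn18, and the cell line mainly Cldn6. Per transcript length, Cldn5 made up 34.2% ± 6.70 and Cldn18 25.4% ± 5.71 of claudin TPM in lung (SD, n = 3), followed by Cldn2 at 15.0% ± 3.81 and Cldn3 at 10.4% ± 1.33. Without lung replicate 2 the shares of Cldn5 and Cldn18 were close, at 30.3% and 28.6%. In the cell line Cldn6 made up 50.1% ± 13.6, Cldn2 20.8% ± 2.66, Cldn12 16.6% ± 11.7 and Cldn18 9.51% ± 3.80, while Cldn5 held 0.345% ± 0.255. The Cldn12 share there was carried by cell line replicate 1, at 30.2% against 10.5% and 9.30%, and without that sample it was 9.88% and that of Cldn5 0.1997%. The summed claudin TPM was 822, 628 and 949.5 in the lung samples against 307, 477 and 460.3 in the cell line samples, with every lung sample above.

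**Figure D3:**
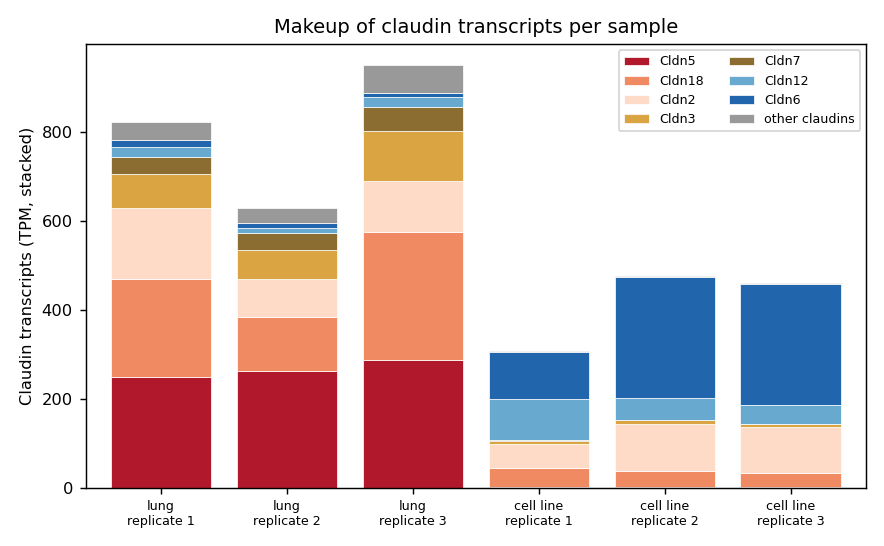
Makeup of the claudin transcripts in each sample. Each bar is a sample, and its height is the sum of TPM over the 19 claudins, stacked by gene with those outside the 7 shown joined as other claudins. The lung bars reach 628 to 949.5 TPM and are mostly Cldn5 and Cldn18, and the cell line bars reach 307 to 477 TPM and are mostly Cldn6, Cldn2 and Cldn12.

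The promoters of the leading claudin of each group are shown, together with both promoters of Cldn18, whose alternative starts were used in different proportions (below). Each is the 250 bases upstream of a start in RefSeq on GRCm38.p6, 5′ to 3′ on the strand of the gene. Capitals mark matches, on either strand, to 4 motifs: ACCGGT (the core of grainyhead-like factors), CACCTG (the E-box bound by SNAI and ZEB repressors), CACTTG (a core of NKX2-1, the lung epithelial factor) and TATAAA (the TATA box).
Cldn5, chr16:18776597-18776846, plus strand: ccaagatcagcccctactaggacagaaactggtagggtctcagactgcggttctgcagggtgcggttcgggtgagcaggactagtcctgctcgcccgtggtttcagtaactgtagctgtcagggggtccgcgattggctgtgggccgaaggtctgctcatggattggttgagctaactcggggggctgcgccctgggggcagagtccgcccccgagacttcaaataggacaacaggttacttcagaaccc
Cldn6, chr17:23679115-23679364, plus strand: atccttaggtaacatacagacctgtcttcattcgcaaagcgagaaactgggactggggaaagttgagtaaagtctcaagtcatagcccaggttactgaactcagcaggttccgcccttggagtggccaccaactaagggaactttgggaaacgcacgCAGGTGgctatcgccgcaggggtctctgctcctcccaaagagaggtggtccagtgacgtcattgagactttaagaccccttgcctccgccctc
Cldn18, downstream start, chr9:99710064-99710313, minus strand: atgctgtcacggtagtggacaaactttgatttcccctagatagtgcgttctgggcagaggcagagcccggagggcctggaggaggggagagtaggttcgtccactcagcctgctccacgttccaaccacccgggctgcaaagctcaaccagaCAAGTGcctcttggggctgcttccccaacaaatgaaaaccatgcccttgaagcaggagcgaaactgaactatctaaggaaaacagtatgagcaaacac
Cldn18, upstream start, chr9:99717268-99717517, minus strand: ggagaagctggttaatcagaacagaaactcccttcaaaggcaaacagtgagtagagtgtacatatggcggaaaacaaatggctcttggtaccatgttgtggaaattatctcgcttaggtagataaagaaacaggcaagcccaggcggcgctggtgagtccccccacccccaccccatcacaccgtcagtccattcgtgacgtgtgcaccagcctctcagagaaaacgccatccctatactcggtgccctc
The Cldn6 window held the SNAI and ZEB E-box 93 bases before the start, and the window of the downstream Cldn18 start held the NKX2-1 core 98 bases before it. No match was found in the windows of Cldn5 and of the upstream Cldn18 start. Of 40 junction genes, 25 had an entry, with 35 starts in all. The NKX2-1 core was in 5 of these 35 windows and in 11.6% of 32851 windows of the same length, the E-box in 8 and in 17.2%, the TATA box in 3 and in 12.4%, and the grainyhead-like core in 0 and in 1.86%. A match describes the letters of the window and is no evidence of binding.

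Cldn5, which seals the junctions of endothelium, had the highest TPM of any junction gene in lung, 267 ± 19.6 (SD, n = 3). It stood at 173, 259.5 and 194 CPM in lung and at 1.54, 0.922 and 0.580 CPM in the cell line, each time in the order of replicates 1, 2 and 3, which holds for all values by sample below. The groups were far apart, with a log2 fold change of 7.67 (SE 0.46, adjusted p = 2.23e-05). The endothelial markers given above moved the same way, and 2 endothelial junction genes outside the set did so as well. Esam, an adhesion molecule of endothelium and platelets, stood at 134, 117 and 145 against 0.653, 0.806 and 0.896 CPM, and Cdh5, the cadherin of endothelial adherens junctions, at 416, 126 and 522 against 1.35, 1.67 and 1.79 CPM. Platelet markers summed to 52.5 to 57.4 CPM in lung and 7.06 to 9.10 CPM in the cell line, and all 6 were called higher in lung, none being at 0.

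Cldn18, the alveolar claudin, was second in lung TPM at 209 ± 84.1, which did not differ from Cldn5 beyond the spread. It was measured at 376, 330.0 and 463 CPM in the lung replicates and at 65.9, 56.8 and 51.3 CPM in the cell line replicates. Lung was higher in every sample, with a log2 fold change of 2.75 (SE 0.271, adjusted p = 0.000106). The cell line thus carried Cldn18 at a level far above the 3-count limit. In the same libraries Sftpa1, Sftpd and Slc34a2 had 0 counts and the alveolar type 1 marker Ager stood at 0.259 CPM on average. Other alveolar markers were well above the limit there, among them Abca3 at 82.6, Aqp5 at 136 and Emp2 at 137 CPM on average. Abca3 and Emp2 were called higher in lung, and Aqp5 did not pass the test.

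Cldn3, Cldn4 and Cldn7, claudins of many simple epithelia, were all higher in lung. Cldn3 stood at 46.7, 56.8 and 67.5 CPM in lung and at 4.67, 6.28 and 4.53 CPM in the cell line, a log2 fold change of 3.47 (SE 0.285, adjusted p = 5.38e-05). Cldn7 stood at 23.6, 32.7 and 32.7 CPM against 0.280, 0.173 and 0.421 CPM, with a log2 fold change of 6.63 (SE 0.403, adjusted p = 2.24e-05). Both were clearly separate between the groups, and the cell line level of Cldn7 lay close to the 3-count limit. Cldn4 was the scarcest of the 3 in lung, at 3.11 ± 0.873 against 0.314 ± 0.0969 CPM (log2 fold change 3.29, SE 0.487, adjusted p = 0.000798).

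A further 4 claudins were found in lung with 3 or fewer counts over all cell line samples. Cldn1, needed for the water barrier of skin, was at 15.1, 7.61 and 13.7 CPM in lung and had 2 cell line counts, both in replicate 1, a ratio of 351 (95% exact Poisson interval 96.8 to 2900). Cldn10, which forms ion-selective pores, was at 11.4, 18.6 and 16.7 CPM and had 3 counts, all in cell line replicate 1, a ratio of 296 (101 to 1440). Cldn15, a cation pore best known from the intestine, was at 8.19, 8.93 and 16.9 CPM and had 3 counts, all in cell line replicate 2, a ratio of 211 (71.9 to 1030). Adjusted p-values were 8.65e-05, 8.56e-05 and 0.000227. The fitted log2 fold changes of these 3 genes, 8.23, 8.09 and 7.59, rest on the replicate that holds the counts, without which they were 10.96, 11.32 and 10.90. Cldn8 stood at 1.88, 1.59 and 2.86 CPM in lung with 0 cell line counts, which makes it at least 39.7-fold higher in lung against 3 counts over the group (adjusted p = 0.000713).

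Cldn6, a claudin of embryonic epithelia, was the junction gene with the highest TPM in the cell line, 216 ± 95.4. It stood at 90.9, 232 and 238 CPM in the cell line replicates and at 11.2, 12.3 and 7.43 CPM in the lung replicates. The groups did not overlap even though cell line replicate 1 was well below the others, and Cldn6 was lower in lung by a log2 fold change of -4.18 (SE 0.452, adjusted p = 0.000174). Cldn12, which lacks the PDZ-binding tail by which other claudins hold ZO proteins, was the other claudin lower in lung. It was at 39.7, 26.1 and 35.3 CPM in lung and at 173, 88.8 and 84.6 CPM in the cell line, with a log2 fold change of -1.78 (SE 0.353, adjusted p = 0.00368). Here cell line replicate 1 was the high sample, and without it the log2 fold change was -1.37.

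Cldn2, a pore for cations and water that is typical of leaky epithelia, was abundant in both groups and did not pass the test. It stood at 237, 182 and 165 CPM in lung and at 92.7, 179 and 179 CPM in the cell line. These ranges overlap (log2 fold change 0.37, SE 0.323, adjusted p = 0.37). Cldn23 was low in both, at 2.07 ± 0.502 against 0.934 ± 0.170 CPM. All lung samples were above the cell line samples, but Cldn23 narrowly missed the threshold (log2 fold change 1.14, SE 0.422, adjusted p = 0.0526) and passed it with library size alone, with a filter of 10 counts in all 6 samples and with limma-voom (adjusted p = 0.0296, 0.0194 and 0.0494).

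Of the 5 other membrane proteins of the tight junction, 4 were higher in lung. Marveld2 (tricellulin), which closes the points where 3 cells meet, was at 15.4, 10.1 and 15.2 CPM in lung against 1.21, 1.15 and 2.53 CPM in KP cells (log2 fold change 3.05, SE 0.418, adjusted p = 0.00057). Its relative Marveld3 was at 6.39, 5.48 and 7.27 CPM against 0.467, 0.230 and 0.316 CPM (log2 fold change 4.2, SE 0.435, adjusted p = 0.000132). Both were separate in every sample. Ocln (occludin), the founding member of that family, stood at 34.8, 18.4 and 40.1 CPM in lung and at 7.05, 5.13 and 5.80 CPM in the cell line, a log2 fold change of 2.37 (SE 0.352, adjusted p = 0.000839). Lung replicate 2 was the low lung sample and still lay above every cell line sample.

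Marveld1, a MARVEL-domain gene placed in this class by its symbol, differed less. It was at 108, 78.1 and 121 CPM in lung and at 52.5, 46.0 and 49.7 CPM in the cell line, a log2 fold change of 1.05 (SE 0.251, adjusted p = 0.00894). The samples did not overlap, but leaving out cell line replicate 2 or 3 ended the call (adjusted p = 0.0705 and 0.0549). F11r (JAM-A), an immunoglobulin-like adhesion molecule that leukocytes and platelets also carry, showed 139.7, 123 and 195 CPM in lung and 194, 137 and 140.2 CPM in the cell line. The groups overlapped, and the log2 fold change of -0.04 (SE 0.281, adjusted p = 0.913) changed sign between settings. F11r was among the 4 junction genes with the highest TPM in both groups, at 124 ± 47.2 in lung and 112 ± 23.3 in the cell line.

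Among the scaffolds, Tjp3 and Cgn were higher in lung and Tjp1 did not pass the test. Tjp3 (ZO-3), which is largely confined to epithelia, stood at 33.7, 29.9 and 36.2 CPM in lung against 10.3, 7.03 and 7.32 CPM in KP cells (log2 fold change 2.01, SE 0.265, adjusted p = 0.000438). Cgn (cingulin), which links ZO proteins to myosin, stood at 82.2, 38.0 and 92.3 CPM against 17.1, 22.1 and 23.7 CPM (log2 fold change 1.76, SE 0.364, adjusted p = 0.0046). Both were higher in lung in every sample.

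Tjp1 (ZO-1), the most studied scaffold, was measured at 192, 75.7 and 259 CPM in lung and at 279.6, 366 and 385 CPM in the cell line. All lung samples were below all cell line samples, but the spread in lung was wide and the difference did not pass the test (log2 fold change -0.97, SE 0.434, adjusted p = 0.0982). It passed without lung replicate 3 (adjusted p = 0.0431, log2 fold change -1.36).

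Of 3 desmosomal cadherins tested, 1 was higher in lung and 2 did not pass the test. They were the scarcest of the 5 classes in both groups, with summed TPM of 10.5 ± 5.58 in lung and 4.06 ± 0.259 in the cell line. Dsg2, the desmoglein of simple epithelia and heart muscle, stood at 29.0, 9.99 and 32.7 CPM in lung and at 10.2, 10.4 and 13.1 CPM in the cell line. Lung replicates 1 and 3 were above all cell line samples and lung replicate 2 was below them, so Dsg2 did not pass the test (log2 fold change 1.09, SE 0.43, adjusted p = 0.0667). It passed without lung replicate 2 (log2 fold change 1.4, adjusted p = 0.00282), with library size alone (0.0371), with the filter of 10 counts (0.047) and with DESeq2 (0.0407). Its partner Dsc2 (desmocollin-2) was higher in lung, at 3.84 ± 1.07 against 1.17 ± 0.426 CPM (log2 fold change 1.71, SE 0.459, adjusted p = 0.0155), a call lost without lung replicate 1 or cell line replicate 3 (adjusted p = 0.0716 and 0.0622). Dsc3, a cadherin of stratified epithelia, was at 0.907 ± 0.544 against 0.328 ± 0.282 CPM and did not pass (log2 fold change 1.42, SE 0.733, adjusted p = 0.144), but did without cell line replicate 1 (2.40, adjusted p = 0.0443). The skin desmogleins Dsg1a, Dsg1b and Dsg3 had between 2 and 5 counts over the lung samples and between 0 and 3 over the cell line samples.

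Of the 6 plaque genes 1 was higher in lung, 1 was lower and 4 did not pass the test, and the called genes were both plakophilins. Pkp1, the plakophilin of stratified epithelia, stood at 0.999, 0.442 and 0.675 CPM in lung and at 21.4, 26.2 and 26.2 CPM in the cell line. It was far lower in lung, with a log2 fold change of -5.10 (SE 0.379, adjusted p = 3.84e-05). Pkp3, a plakophilin of most epithelia, stood at 15.9, 18 and 17.2 CPM in lung and at 2.89, 3.97 and 4.06 CPM in the cell line, higher in lung by a log2 fold change of 2.23 (SE 0.28, adjusted p = 0.000339). Pkp2, the plakophilin of simple epithelia and heart, was at 35.3, 34.6 and 35.9 CPM against 30.2, 41.4 and 38.9 CPM, and the lung samples lay within the cell line range (log2 fold change -0.06, SE 0.231, adjusted p = 0.845). In the cell line the Pkp1 level came with basal and squamous markers of no more than 15.5 CPM in sum. The highest of them there on average was Krt6a, at 0.0933, 7.37 and 9.01 CPM against 0 in every lung sample. Krt13 and Krt14 averaged higher in the cell line as well, and Krt5, Trp63 and Krt15 averaged higher in lung.

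Jup (plakoglobin), which sits in both desmosomes and adherens junctions, was among the 3 junction genes with the highest TPM in both groups (171 ± 62.1 in lung, 111 ± 27.8 in the cell line). It was at 264, 231 and 342 CPM in lung and 129, 211 and 199.98 CPM in the cell line. All lung samples were above, but the difference did not pass (log2 fold change 0.63, SE 0.295, adjusted p = 0.11) except with library size alone (adjusted p = 0.0408). Pkp4, a plakophilin relative also found at adherens junctions, was at 109, 69.9 and 110.3 CPM against 122, 144 and 146 CPM (log2 fold change -0.51, SE 0.264, adjusted p = 0.146), with all lung samples below. Dsp (desmoplakin), the link to keratin, was at 83.5, 30.2 and 74.7 CPM against 32.9, 60.5 and 62.7 CPM. These overlapped, and lung replicate 2 and cell line replicate 1 were the low samples (log2 fold change 0.27, SE 0.423, adjusted p = 0.62). Without those 2 samples Tjp1 (log2 fold change -0.74, adjusted p = 0.00592), Pkp4 (-0.40, adjusted p = 0.00242), Jup (0.56, adjusted p = 0.0116), Dsp (0.36, adjusted p = 0.0128), Cldn23 (1.29, adjusted p = 0.038) and Dsg2 (1.39, adjusted p = 0.000613) passed, and 21 junction genes were higher and 6 lower.

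**Figure D4:**
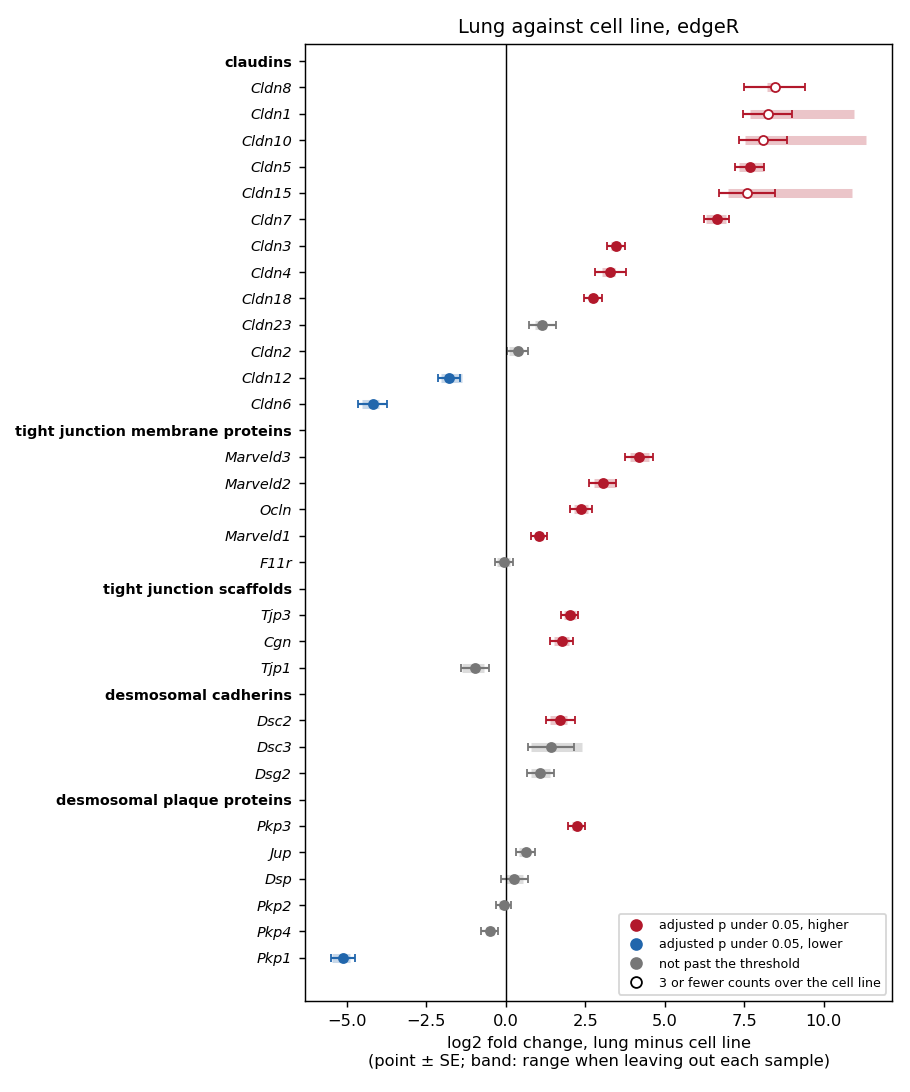
Log2 fold changes of 30 tested junction genes. The x axis is the log2 fold change, lung minus cell line, points are edgeR estimates with bars of 1 SE, bands span the values with each sample left out, colour gives the call, and open points are genes with 3 or fewer cell line counts, whose size is not well determined. Claudins span from -4.18 (Cldn6) to the open points on the right, and among the plaque genes Pkp1 at -5.10 and Pkp3 at 2.23 stand apart from the other 4.

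The table is by transcript, so the use of alternative forms could be read within a gene, as the share of each transcript in the TPM of its gene. With 3 samples against 3 an exact two-sided permutation test cannot go below p = 0.1, which is the value for groups that do not overlap. Cldn18 has a start near the alveolar form and another 7204 bases upstream, whose first exon gives the form known from stomach. The transcript from the upstream start held 17.1%, 4.01% and 21.8% of Cldn18 in lung and 33.3%, 28.3% and 30.7% in the cell line. The lung samples were all below (14.3% ± 9.24 against 30.8% ± 2.52, exact permutation p = 0.1), and without lung replicate 2 the difference was -11.3 percentage points in place of -16.4. The transcript from the downstream start held 77.4% ± 12.2 in lung and 46.1% ± 2.58 in the cell line. A further coding transcript, whose start was not compared with these, held 8.24% ± 3.18 in lung and 23.2% ± 4.06 in the cell line.

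Dsp has a long form and a short form, desmoplakin I and II, the latter made by cutting an exon of 2295 bases to 498. The short form held 51.0%, 77.1% and 53.9% of Dsp in lung and 14.8%, 18.3% and 9.07% in the cell line. The groups were far apart (60.7% ± 14.3 against 14.1% ± 4.65, exact permutation p = 0.1), and without lung replicate 2, the highest, the difference was 38.4 points in place of 46.6. The gene as a whole did not pass the test for a difference in level.

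The longer coding transcript of Tjp1 (7049 bases) has an inner exon of 240 bases, the alpha region of ZO-1, that the shorter one (6102 bases) lacks. Their lengths differ by more than this exon, and only inner exons were compared. The shares below are therefore those of whole transcripts and do not measure use of the exon alone. Of the TPM of these 2 coding forms together, a comparison chosen after the data had been seen, the form with the exon held 88.0%, 95.8% and 75.6% in lung and 53.6%, 53.3% and 49.0% in the cell line. Its share was higher in every lung sample (86.5% ± 10.2 against 52.0% ± 2.57, exact permutation p = 0.1, 29.8 points apart without lung replicate 2 in place of 34.5). As a share of the whole gene it was 56.6% ± 7.11 against 45.7% ± 2.57, since a noncoding transcript of 699 bases, Tjp1-203, took 26.0% ± 5.83 of Tjp1 TPM in lung and 0.143% ± 0.248 in the cell line. Of the estimated counts of Tjp1, which are not divided by length, Tjp1-203 held only 3.53% in lung and 0.0154% in the cell line on average.

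**Figure D5:**
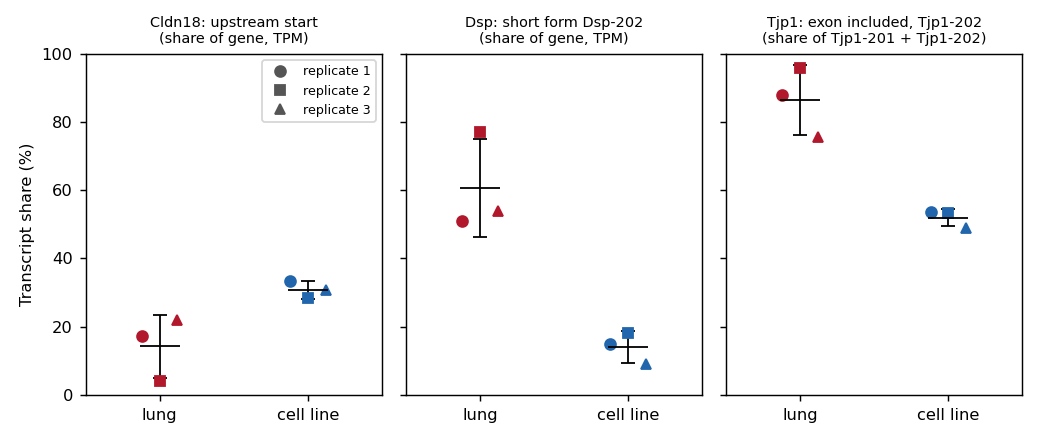
Shares of alternative transcripts in Cldn18, Dsp and Tjp1. The y axis is the share in percent of the TPM of the gene (the upstream-start transcript of Cldn18 and the short form of Dsp) or of both coding forms (the Tjp1 form with the exon), red points are lung samples, blue points are cell line samples, and the lines give mean and SD (n = 3). The lung points lie below the cell line points for Cldn18 and above them for Dsp and Tjp1.

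Other genes of the set also had transcript shares with no overlap between groups, and those named here are examples. How often such shares occur over all genes was not computed. Ocln-205 held 22.5% ± 2.66 of Ocln in lung and 52.8% ± 15.0 in the cell line. Tjp3-205 held 20.4% ± 5.15 of Tjp3 in lung and was at 0 in the cell line. Pkp4-209, a noncoding transcript, held 48.6% ± 11.9 of Pkp4 against 19.5% ± 2.31. Each had exact permutation p = 0.1. In lung, Cldn10 was split between a shorter coding transcript (54.9% ± 12.4 of its TPM) and a longer one (45.1% ± 12.4). Of the estimated counts, which are not divided by length, the shorter held 40.2% and the longer 59.8% on average. Which of them is the anion-selective claudin-10a and which the cation-selective claudin-10b was not tested. Most transcripts of these genes share exons, so the estimated shares depend on how the authors' quantification split their reads.

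Genes that work beside the set were counted from lists, against 31.3% called higher and 17.5% lower over all genes tested. The counts of the polarity, desmosome-linked and adherens junction lists lay close to these shares. Of 32 further tight junction and polarity genes, 9 were higher, 6 lower and 17 did not pass (median log2 fold change -0.10). The highest-expressed of the 9 were Esam, given above, Prkcz (atypical protein kinase C zeta, log2 fold change 2.10, SE 0.244, adjusted p = 0.000225) and Crb3, an apical polarity protein of epithelia (3.45, SE 0.42, adjusted p = 0.000306). Those of the 6 were Ybx3 (-1.61, SE 0.304, adjusted p = 0.00288), a ZO-1 binding transcription factor, Cgnl1 (paracingulin, -1.30, SE 0.398, adjusted p = 0.0264) and Prkci (-1.01, SE 0.298, adjusted p = 0.0227). The calls of Cgnl1 and Prkci were lost with library size alone (adjusted p = 0.0624 and 0.0696) and with 10 counts in all 6 samples (0.0538 and 0.0525). That of Cgnl1 was also lost without cell line replicate 1 (0.0713), and that of Prkci without cell line replicate 2 (0.0526) or 3 (0.06).

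Of 12 tested genes linked to desmosomes, 3 were higher, 2 lower and 7 did not pass (median -0.33). The 3 were Des (desmin, log2 fold change 5.20, SE 0.323, adjusted p = 2.49e-05), the filament of muscle, Kazn (5.99, SE 0.451, adjusted p = 4e-05) and Pof1b (7.52, SE 0.606, adjusted p = 5.12e-05). Smooth muscle markers, which include Des, were higher as well (328 to 523 against 11.8 to 17.7 CPM, 5 of 5, none at 0). Krt18, a keratin of simple epithelia, stood at 604, 1018 and 466 CPM in lung and 1181, 2595 and 2622 CPM in the cell line and was lower in lung (log2 fold change -1.61, SE 0.447, adjusted p = 0.0176), a call lost without lung replicate 1 or 3 (adjusted p = 0.0672 and 0.0536). Cdsn was at 44.5 CPM in cell line replicate 1 and 1.04 and 1.26 CPM in the others, and its call (-5.13, SE 1.52, adjusted p = 0.023) was lost without that sample (-1.39, adjusted p = 0.0612). It was also lost without lung replicate 1 (adjusted p = 0.0676) or 2 (0.0813) and with limma-voom (-3.24, adjusted p = 0.134).

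Of 12 adherens junction genes, 4 were higher, 2 lower and 6 did not pass (median -0.46). Cdh1 (E-cadherin), the epithelial cadherin, was at 526, 167 and 473 CPM in lung and 416, 466 and 466 CPM in the cell line, and the groups overlapped (log2 fold change -0.21, SE 0.42, adjusted p = 0.704). Cdh2 (N-cadherin), the cadherin of mesenchymal and neural cells, was at 4.03, 1.81 and 5.66 CPM in lung and 93.6, 108 and 122 CPM in the cell line, a log2 fold change of -4.81 (SE 0.448, adjusted p = 8.72e-05). Ctnnb1 (beta-catenin) was the other lower gene (-1.13, SE 0.316, adjusted p = 0.0182), which no longer passed without cell line replicate 2 or 3 (adjusted p = 0.052 and 0.0548). Of the 4 higher genes the highest-expressed were Cdh5, given above, Nectin2 (0.77, SE 0.258, adjusted p = 0.0382) and Nectin3 (1.05, SE 0.263, adjusted p = 0.0114), and neither nectin passed without cell line replicate 2 (adjusted p = 0.202 and 0.0529). Nectin2 did not pass either without lung replicate 1 (0.0909) or 3 (0.111), without cell line replicate 3 (0.195) or with no filter on low counts (adjusted p = 0.0697).

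Among regulators of epithelial junction genes, 12 of 14 tested were higher in lung, 1 was lower and 1 did not pass (median log2 fold change 4.54). Grhl2, a transcription factor that drives claudin and cadherin genes, stood at 13.3, 6.06 and 21.3 CPM in lung against 0.280, 0.749 and 0.527 CPM in KP cells (log2 fold change 4.71, SE 0.607, adjusted p = 0.000414). Epcam, which binds and stabilises claudin-7, stood at 49.9, 46.7 and 59.3 CPM against 1.91, 2.59 and 3.00 CPM (4.38, SE 0.297, adjusted p = 3.09e-05). Esrp1, a splicing factor of epithelia, stood at 17.6, 7.83 and 30.0 CPM against 0.280, 0.173 and 0.0527 CPM (6.70, SE 0.724, adjusted p = 0.000172), while its relative Esrp2 overlapped between groups (35.5 ± 6.38 against 33.7 ± 7.86 CPM, adjusted p = 0.838). Klf5 was the lower one, at 50.1, 31.4 and 48.3 CPM against 123, 117 and 127 CPM (-1.50, SE 0.261, adjusted p = 0.00186). Grhl3 was not tested.

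Of 6 factors known to repress epithelial junction genes, 1 was higher, 2 were lower and 3 did not pass (median -0.78). Twist2 stood at 1.12, 2.12 and 1.04 CPM in lung against 11.7, 26.0 and 29.8 CPM in KP cells (log2 fold change -3.97, SE 0.486, adjusted p = 0.000316), and Twist1 at 0.652 ± 0.443 against 4.31 ± 0.825 CPM (-2.73, SE 0.625, adjusted p = 0.00759). Snai1 went the other way, at 18.3, 18.3 and 14.4 CPM in lung against 1.73, 3.92 and 3.58 CPM (2.47, SE 0.372, adjusted p = 0.000903). Snai2 was at 58.5 CPM in cell line replicate 1 and 8.93 and 9.96 CPM in the others, and did not pass (-1.64, SE 0.715, adjusted p = 0.0901). Zeb1 (57.3 ± 24.5 against 53.9 ± 0.795 CPM, adjusted p = 0.855) and Zeb2 (93.4 ± 40.0 against 63.6 ± 24.4 CPM, adjusted p = 0.298) overlapped between groups. These factors are made by many cell types of lung, fibroblasts among them, whose 6 markers were all higher in lung (850 to 2793 against 14.6 to 24.2 CPM, none at 0).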

How the data were processed

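RNA-seq libraries of 3 lung and 3 cell line samples were used. Per the labels' protocols, lungs were digested with collagenase, RNA was amplified and a stranded mRNA kit was used, and the cell line samples carry the same text. The values the authors deposited are estimated counts per transcript. The submitters' processing notes name the build GRCm39 and the tools Salmon 1.4.0, FastQC 0.11.9 and DESeq2 1.32.0 without their roles. Neither annotation release nor strand setting is given in the sources used here. No column of another sample was present. Of 76776 transcripts, 76521 (99.67%) matched GENCODE M21, which is on another build and served for names, lengths and exon structure only. Unmatched transcripts, between 0.107% and 0.416% of each sample's counts, were left out. Promoter sequences were taken from RefSeq on GRCm38.p6.

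Transcripts were summed to symbols and rounded, and tested with edgeR 4.0.16 in R 4.3.3 (quasi-likelihood F test, robust dispersions, TMM, filterByExpr by group, group as the only term, Benjamini-Hochberg over all genes tested). SE is the log2 fold change divided by the root of F. TPM was computed from annotated lengths, without a correction for the fragments of each library. Transcript shares were compared by exact two-sided permutation. Genes with 5 CPM or more in a group, and all junction genes called lower, are given by sample, the others by means or counts. From the lists of other genes, at most the 3 highest-expressed called genes in each direction are named, and any of the regulators and repressors. The members and lists were chosen with earlier results of these data known. Results were recomputed with the DESeq2 1.42.0 Wald test and limma-voom (limma 3.58.1), with other scalings (size factors, library size only), with other filters (none, or 10 counts in every one of 6 samples), with a 2-fold minimum, with the replicate number as a block and with samples left out. The tests were tried on simulated data first. Close relatives such as Dsg1a and Dsg1b may share reads. Some genes that the naming rule would include are not reported here, though they stay in the counts over lists.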

Additional observations from a re-analysis of the deposited data

How the results depend on the processing

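The counts of junction genes higher and lower in lung stayed within 1.5 times 17 and 4 under every alternative run. Leaving out each sample in turn gave 15 to 18 higher and 3 to 5 lower. Of the single values, 352 kept direction and side of the threshold or, for transcript shares, stayed within their spread. Of the rest, 12 passed the threshold in addition, 7 lost it, 8 changed sign and 2 moved by more than their spread. These values cover the 26 junction genes that reached 5 CPM in a group or were lower in lung, and transcript shares of Cldn18, Dsp and Tjp1. The changes of Cldn23, Dsc2 and Dsc3 given above are not among them. F11r, which was not called, changed sign with library size alone (0.19), with 10 counts in all 6 samples (0.15), and with the samples that stood apart in each group left out together (0.27). Leaving out each sample in turn gave F11r values from -0.26 to 0.13, with 0.02 without lung replicate 1, 0.03 without lung replicate 2 and 0.13 when cell line replicate 1 was left out. Pkp2, also not called, did so with library size alone (0.17) and with 10 counts (0.13). The share of the Tjp1 form with the alpha exon differed by 10.8 points of the whole gene, by 27.0 points on estimated counts and by 34.5 points among the coding forms. Tjp1-203, given above, is part of the whole-gene shares, on TPM and on counts, and not of the share among the coding forms. Why the groups differed was not tested.

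Same-numbered lung and cell line samples did not deviate together (correlations -0.0422, 0.0822 and -0.0834). The labels do not say whether the numbers pair samples, and deviations from means of 3 samples cannot decide it. With the replicate number as a block, 17 junction genes were higher and 5 lower, Tjp1 being the one added (log2 fold change -1.11, adjusted p = 0.0304). Of the other genes named, Nectin2 (adjusted p = 0.0641) and Cdsn (0.339) lost their calls under the block.

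On TMM-scaled library sizes 3 counts came to 0.12 CPM in lung replicate 1 and up to 0.173 CPM in cell line replicate 2, which limits Cldn1, Cldn8, Cldn10 and Cldn15 in the cell line.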
